A study of Nicotiana benthamiana with 6 samples.

Results

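The genes described here are those that the annotation of a de novo leaf transcriptome assigned to 3 growth hormones, the gibberellins, the cytokinins and the brassinosteroids. A unigene (one assembled transcript kept for each assembled gene) was taken as a member when its best UniProt match was named for a gibberellin, DELLA, cytokinin, ARR or ORR response regulator, histidine-containing phosphotransfer, brassinosteroid or BRASSINAZOLE protein and its best match in the NCBI non-redundant protein database (NR) came from *Nicotiana* or *Solanum*. Gibberellin-regulated peptides (9 unigenes) and the BRI1-associated kinase (5 unigenes) were set aside. This left 119 members of 167935 unigenes, 52 for gibberellin, 61 for cytokinin and 6 for brassinosteroid, under 50 protein names. The NR match was a *Nicotiana* protein in 117 members and a *Solanum* protein in 2.

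Poly(A) RNA was sequenced from leaves of *Nicotiana benthamiana* plants 5 weeks old, collected 3 days after infiltration with *Agrobacterium tumefaciens* LBA4404. The bacteria of the overexpression group carried pCAMBIA2200::*MaWRKY45*, in which the CaMV35S promoter drives the banana WRKY factor, and those of the mock group carried the empty pCAMBIA2200 vector. Both groups therefore received the same bacteria and the same vector backbone, and the expression was transient and not limited to one leaf cell type. Each group had 3 libraries, each one made from the pooled RNA of 3 plants, and total counts ran from 12031310 to 14285138 per library.

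Gibberellins are made active by 20-oxidases and 3-oxidases and inactivated by 2-oxidases. The active hormone binds the receptor GID1, which then captures the growth-repressing DELLA proteins for degradation. Cytokinins are released in active form by LOG enzymes and broken down by cytokinin dehydrogenases. Histidine kinases pass their signal through phosphotransfer proteins to type B response regulators, whose rapid targets include the type A regulators, and the hormone is known for delaying leaf senescence. Brassinosteroids are perceived by the receptor kinase BRI1 and act through BZR1 transcription factors to promote cell expansion.

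The UniProt name and the other annotation agreed for most members. The NR match named the same protein family in 102 of 119 members, and 115 had a Pfam domain, for instance GRAS in each of the 14 DELLA unigenes and a histidine phosphotransfer domain in each of the 10 phosphotransfer unigenes. The 17 others included all 6 unigenes named gibberellin 20-oxidase-like, whose NR matches were 2-beta- or 3-beta-dioxygenases, and both unigenes named for the brassinosteroid receptor, whose NR matches were a receptor-like protein kinase and a receptor-like protein. These are given below by their UniProt names with that limit. *N. benthamiana* is an allotetraploid, and 37 members lay in 16 assembly components that held more than 1 member, so reads may have been divided between near-identical copies or between fragments of one gene.

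The libraries were examined before the comparison. A unigene with an NR match to a banana WRKY factor, which also matched vector sequence, had counts of 1617, 781 and 1455 in the mock libraries and of 3133, 4527 and 3615 in the overexpression libraries. The 75 unigenes of the leaf mesophyll list (photosynthesis genes, 74 of them with reads, and of 55 tested 1 called higher and 9 lower) summed to between 13103 and 40499 CPM (counts scaled to library depth, with the trimmed mean of M values, TMM) in mock, the highest in replicate 2, and to between 8745 and 14490 in overexpression. Unigenes with a yeast NR match summed to between 709 and 1008 CPM in mock and between 22.3 and 74.2 in overexpression, and those matching *Agrobacterium* or *Escherichia* to between 28.7 and 63.1 and between 213 and 299.6. No member had such a match. Of 123 tested yeast unigenes 110 were called lower, and of 9 tested bacterial unigenes 7 were called higher. These calls are part of the shares given below for all tested unigenes. The 5 guard cell unigenes, all with reads, summed to between 63.7 and 71.3 CPM in mock and between 37.0 and 52.3 CPM in overexpression, without overlap. Of these, 4 were tested and 0 were called in either direction. The phloem list (10 unigenes) summed to between 123 and 199 CPM and between 189 and 237 CPM, and the shoot meristem list (17 unigenes) to between 299 and 428 CPM and between 331 and 394 CPM, both with overlap. The xylem and root lists summed to 11.6 to 26.5 CPM and 135 to 165 CPM over all libraries and also overlapped. The part of these shifts in the values below was not tested.

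Mock replicate 2 and overexpression replicate 3 stood somewhat apart. Over 37201 tested unigenes the log2 levels of overexpression replicate 3 correlated with those of replicates 1 and 2 at 0.970 and 0.969, against 0.982 between these 2, and mock replicate 2 correlated with mock replicates 1 and 3 at 0.962 and 0.960, against 0.979. Among the 67 members tested, overexpression replicate 3 was the overexpression library nearest to the mock mean in 34 (50.7%), against 39.8% of all tested unigenes. Without mock replicates 1, 2 and 3 in turn, 3, 11 and 3 members passed the threshold used below, against 1.72%, 6.62% and 3.1% of all tested unigenes, and without overexpression replicates 1, 2 and 3 in turn 1, 2 and 11 passed, against 2.14%, 1.97% and 6.86%. The libraries whose removal ended or made a call are therefore named beside each member below.

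With the 3 overexpression libraries compared against the 3 mock libraries, 67 of 119 members had enough reads for the test, and 5 of them differed by 2-fold or more with an adjusted p below 0.05 (edgeR's quasi-likelihood test, Benjamini-Hochberg adjustment over all tested unigenes). All 5 rose: a gibberellin 2-oxidase, a DELLA protein, a pair of cytokinin dehydrogenases and a kinase named BRI1. None fell at this threshold by edgeR, with 8 lower at an unadjusted p under 0.05 and 2 called lower by DESeq2. The share of called members, 7.46%, compares with 4.59% of all 37201 tested unigenes (1.92% higher and 2.67% lower). Scaling by library size alone turned the balance of calls over all unigenes to 2.51% higher and 2.01% lower (4.52% in all), gave 6 called members, and shifted the median log2 fold change over all unigenes from -0.01 to 0.11. The members showed no common direction: 31 were higher and 36 lower, with a median log2 fold change of -0.07.

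At an unadjusted p under 0.05 there were 21 members (31.3%), against 18.9% of all tested unigenes, which is the background for every count at that level below. The 2 groups did not overlap in 22 members (32.8%), against 22.9%. DESeq2 called 7 members, the same 5 and 2 that were lower, against a background of 4.01% (1.52% higher and 2.49% lower), and limma-voom called 4, against 3.66%. A test against a fold change of 2 (edgeR glmTreat) called 1, against 1.03%, and the fit without a read filter called 12 of 117, against 2.62%. DESeq2 size factors and a stricter filter each gave 5 (4.71% and 4.67% of all), and counts summed by protein name gave 2 of 37 names (4.05%). Since 8 of the tested members had all libraries of just 1 group above the read filter, among them the 2-oxidase that was called, such shares describe the members and do not stand as support for a difference. The p-values measure the spread between pools of plants, an exact permutation test of 3 against 3 libraries cannot go below 0.10, and in leaf RNA fewer cells of a type cannot be told apart from less RNA per cell.

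**Figure D1:**
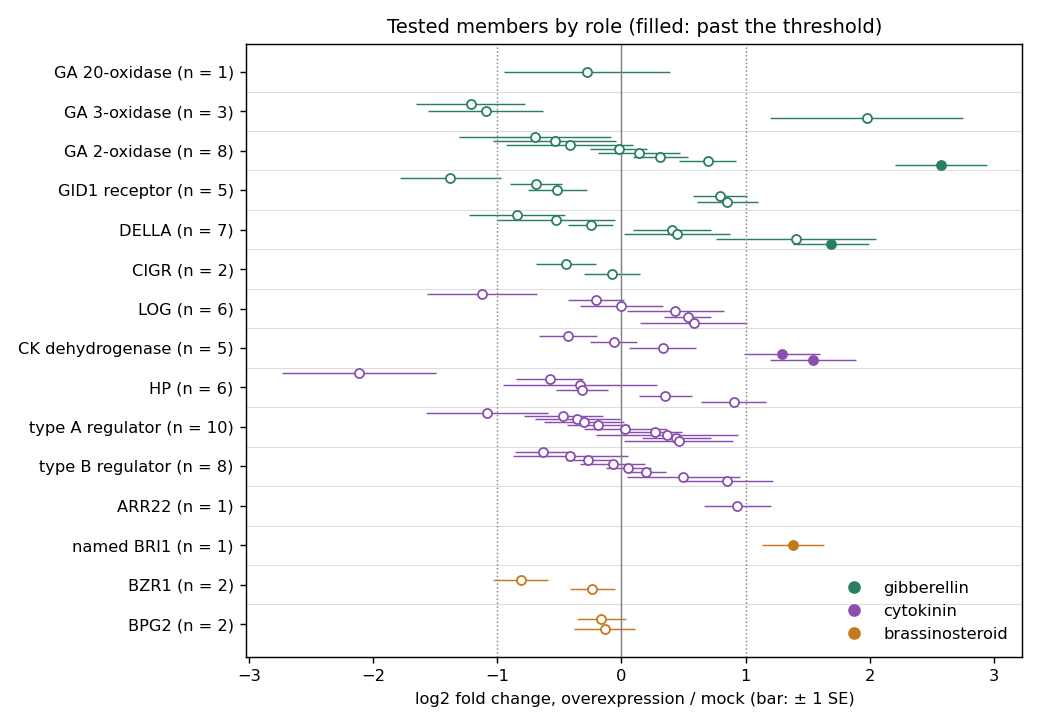
Each point is one of the 67 tested members, with its log2 fold change (overexpression over mock) on the horizontal axis, a bar of 1 SE on either side, and its role on the vertical axis; dotted lines mark a fold change of 2 and filled points passed the threshold. The 5 filled points lie to the right, between 1.29 and 2.57, in the 2-oxidase, DELLA, cytokinin dehydrogenase and BRI1 rows, while the 18 type A and type B regulators show no filled point.

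The largest rise among the tested members was in gibberellin inactivation. The 2-oxidase unigene c97045_g3_i1 (Gibberellin 2-beta-dioxygenase 1), whose family removes active gibberellins and their precursors, was counted 11, 7 and 9 times in mock and 68, 50 and 51 times in overexpression. In TMM-normalized CPM this was 0.711 ± 0.164 (SD, n = 3) and 4.27 ± 0.969, and each overexpression library was several times above each mock library. The log2 fold change was 2.57 (SE 0.37, edgeR adjusted p = 0.0050). It was the one member past a test against a fold change of 2 (edgeR glmTreat, adjusted p = 0.0286), and it passed the threshold with any single library left out (log2 fold change 2.37 to 2.69). It passed the read filter of 0.763 CPM through the overexpression libraries, the mock mean lying just under it.

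The other unigenes of its assembly component did not follow. Unigene c97045_g2_i5, with the same protein name, had 7.08, 8.56 and 7.36 CPM in mock and 8.16, 10.9 and 9.51 CPM in overexpression (log2 fold change 0.31, SE 0.22, edgeR adjusted p = 0.52), and the untested c97045_g14_i1 had 17, 9 and 6 counts against 6, 5 and 8. Of the counts that c97045_g3_i1 and c97045_g2_i5 held together, the first took 8.60% ± 2.49 (SD, n = 3) in mock and 31.1% ± 7.70 in overexpression, with no overlap.

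The 2-oxidase with the highest level per length was c23107_g1_i1 (Gibberellin 2-beta-dioxygenase 2), at a mean of 30.4 FPKM (the authors' fragment level scaled to transcript length and library depth) over the 6 libraries. It had 28.0, 44.5 and 45.6 CPM in mock and 65.3, 74.3 and 51.6 CPM in overexpression, a difference without overlap that did not pass the test (log2 fold change 0.70, SE 0.23, edgeR adjusted p = 0.12). Of the 8 tested 2-oxidases, 4 were higher and 4 lower, from -0.70 to 2.57. Summed over all 16 members, 2-oxidase transcripts came to 95.7, 104 and 98.9 CPM in mock and to 126.5, 132.5 and 126.6 CPM in overexpression, a ratio of the means of 1.29. Most of this sum belonged to c23107_g1_i1 and to 2 unigenes of Gibberellin 2-beta-dioxygenase 1, c160947_g1_i1 and c96519_g1_i1, whose log2 fold changes were -0.02 and 0.14.

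**Figure D2:**
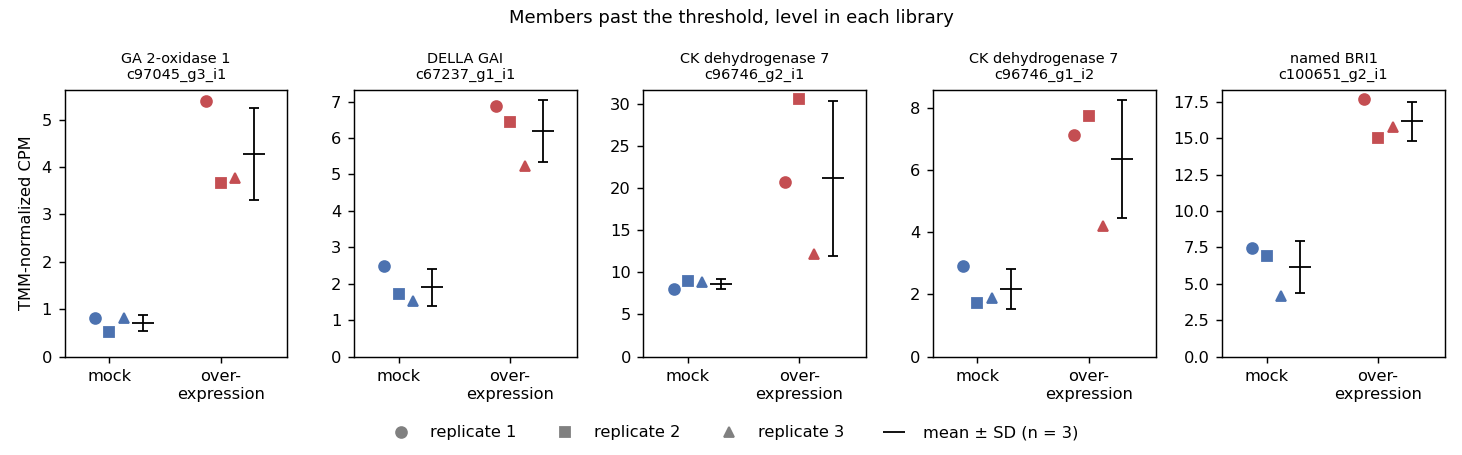
TMM-normalized CPM (vertical axes, each from 0) of the 5 members past the threshold in the 3 mock and 3 overexpression libraries; symbols mark the replicate and the bar the mean ± SD of 3 libraries. In each panel the overexpression libraries lie above all mock libraries, and overexpression replicate 3 is the lowest of its group in the DELLA and both cytokinin dehydrogenase panels.

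The enzymes that make active gibberellin pointed in different directions and none passed the edgeR test. The 20-oxidases carry out the later oxidations of synthesis, and 1 of the 10 members had enough reads. This unigene, c84423_g1_i2 (Gibberellin 20 oxidase 1), had 1.31, 10.4 and 1.80 CPM in mock and 3.72, 2.34 and 5.16 CPM in overexpression. Mock replicate 2 was above all other libraries, and leaving it out turned the log2 fold change from -0.28 (SE 0.67, edgeR adjusted p = 0.88) to 1.27 (adjusted p = 0.12). Unigene c111963_g1_i1 (Gibberellin 20 oxidase 2) had 4, 5 and 1 counts in mock and 0 in each overexpression library. With the overexpression group set at a floor of 3 counts in total this was 3.47-fold lower, a value that is not a confidence limit. No edgeR or DESeq2 call was made in this family, and the tested unigene had an unadjusted p above 0.05.

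The 3-oxidases, which complete the active hormone, comprised 5 unigenes, of which 3 were tested. The highest per length was c83001_g1_i2 (Gibberellin 3-beta-dioxygenase 1), with 28.8, 33.9 and 17.5 CPM in mock and 6.50, 6.74 and 21.3 CPM in overexpression. Replicates 1 and 2 of overexpression were below every mock library, whereas replicate 3 lay within the mock range. The log2 fold change was -1.22 (SE 0.44, edgeR adjusted p = 0.16; DESeq2 adjusted p = 0.0463), and without overexpression replicate 3 it was -2.00 (edgeR adjusted p = 0.0044). Its NR and KEGG matches were to a gibberellin 2-beta-dioxygenase 8, so the annotation does not settle on which side of the pathway it acts. Unigene c73730_g1_i2, of the same UniProt name, had 8.83, 5.96 and 5.93 CPM against 2.93, 1.17 and 5.61 CPM, replicate 3 lying just below the lowest mock library (log2 fold change -1.09, SE 0.46, edgeR adjusted p = 0.23) and -1.75 without overexpression replicate 3 (adjusted p = 0.0348).

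The remaining 3-oxidase unigenes, 3 short fragments of component c59592, went the other way. Fragment c59592_g2_i1 was counted 2, 12 and 0 times in mock and 25, 18 and 14 times in overexpression (log2 fold change 1.97, SE 0.78, edgeR adjusted p = 0.20). Fragments c59592_g1_i1 and c59592_g3_i1, which were below the read filter, had 0, 4 and 0 against 10, 14 and 4 counts, and 0, 1 and 0 against 4, 3 and 3 counts. Nearly all mock reads of the 3 fragments came from mock replicate 2, which held 17 of 19. Without it, c59592_g2_i1 passed the threshold (log2 fold change 4.02, adjusted p = 0.0188), and so did c59592_g1_i1 (adjusted p = 0.0382). Leaving out the library with most mock reads favours such a result. Both fragments then passed the read filter through overexpression libraries alone, so these 2 calls do not stand as support for a difference. Over the component, 95 reads in overexpression stood against 19 in mock, a ratio of 4.80 (exact 95% binomial interval 2.91 to 8.33). The intervals given here for low counts cover counting error only.

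**Figure D3:**
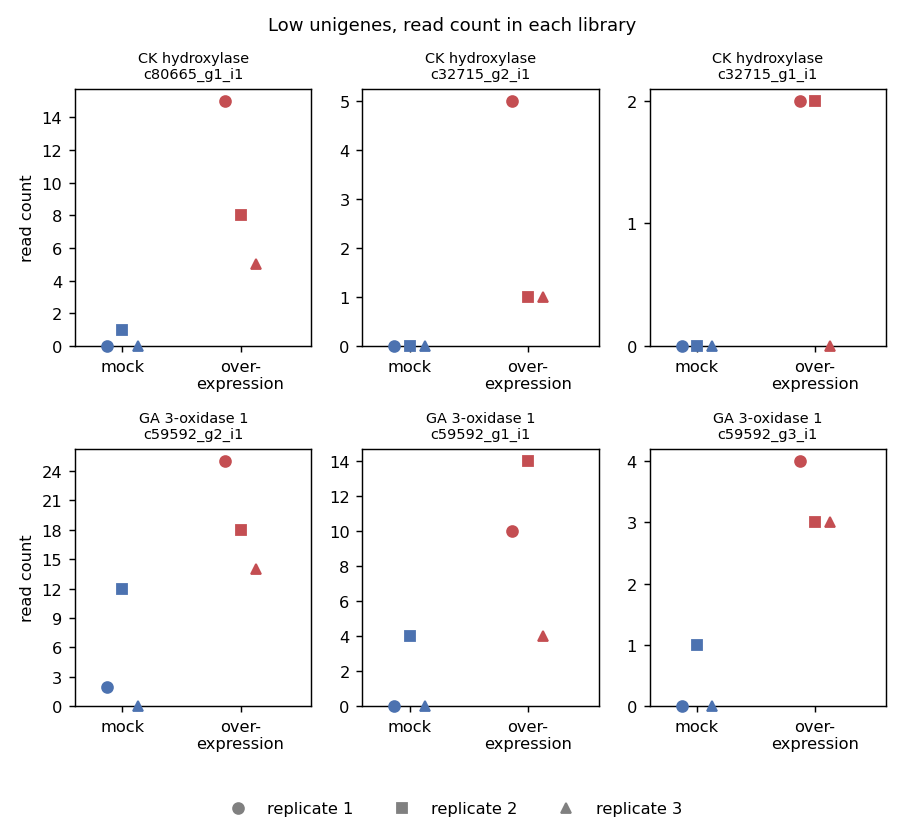
Read counts (vertical axes, each from 0) in the 3 mock and 3 overexpression libraries of 3 cytokinin hydroxylase unigenes (upper row) and of the 3 gibberellin 3-oxidase fragments of component c59592 (lower row), with a symbol for each replicate. The hydroxylases had 1 count in all mock libraries together, and mock replicate 2 is the highest mock library in each lower panel.

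The gibberellin receptor unigenes had log2 fold changes of either sign. All 5 receptor unigenes were tested, and none was called by edgeR, DESeq2 or limma-voom. In edgeR 4 had an unadjusted p under 0.05, a level that 18.9% of all tested unigenes reached. The most abundant, c94422_g3_i1 (GID1B, 30.3 FPKM), had 37.6, 53.9 and 56.5 CPM in mock and 89.4, 67.4 and 99.6 CPM in overexpression, with no overlap (log2 fold change 0.79, SE 0.22, edgeR adjusted p = 0.066). In DESeq2 this unigene had an adjusted p of 0.0403 but a difference of less than 2-fold (0.79). Its neighbour in the same component, c94422_g2_i1, had 32.8, 25.2 and 36.004 CPM against 19.97, 16.9 and 28.8 CPM, with overlap (log2 fold change -0.52, SE 0.24, edgeR adjusted p = 0.27). The first unigene therefore took 60.9% ± 7.38 of the pair's counts in mock and 79.8% ± 2.09 in overexpression (SD, n = 3).

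The second GID1B component gave the same split. The lower unigenes of the 2 components, c94422_g2_i1 and c90100_g2_i1 (458 bases), had the same KEGG match. Whether they are separate genes was not tested, so the splits may not be independent. Unigene c90100_g1_i1 had 4.89, 5.36 and 6.82 CPM in mock and 11.6, 8.35 and 10.8 CPM in overexpression (log2 fold change 0.85, SE 0.25, edgeR adjusted p = 0.080), while c90100_g2_i1 had 2.85, 3.95 and 6.37 CPM against 1.19, 1.46 and 2.36 CPM (-1.38, SE 0.41, adjusted p = 0.085). The groups did not overlap in either, and the share of the first in the pair went from 57.5% ± 5.75 to 85.9% ± 4.42 (SD, n = 3). Unigene c90100_g2_i1 passed the threshold without overexpression replicate 3 (-1.70, adjusted p = 0.0465). GID1C, c96873_g1_i2, had 28.5, 26.3 and 25.2 CPM in mock and 14.97, 13.6 and 21.1 CPM in overexpression (-0.69, SE 0.21, adjusted p = 0.094). Summed over the 4 GID1B unigenes the level was 78.1, 88.4 and 105.7 CPM against 122, 94.2 and 141 CPM, so the groups overlapped. Since both unigenes of a pair came out of one read graph, how the counting divided reads between them was not tested.

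**Figure D4:**
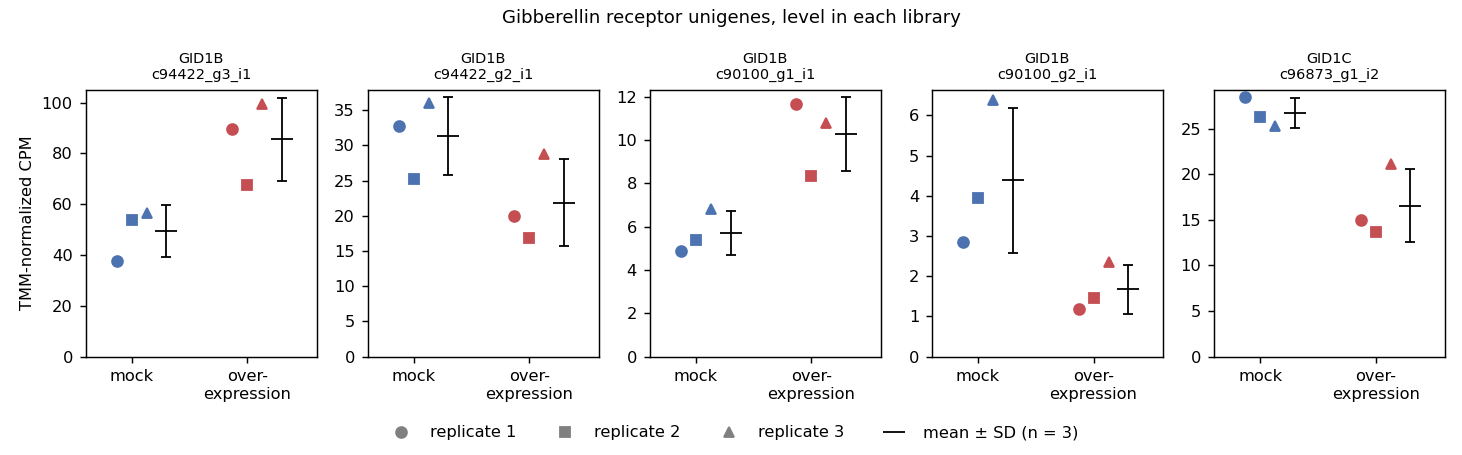
TMM-normalized CPM (vertical axes, each from 0) of the 5 gibberellin receptor unigenes in the 3 mock and 3 overexpression libraries; symbols mark the replicate and the bar the mean ± SD of 3 libraries. In each GID1B component, c94422 and c90100, one unigene is higher and the other lower in overexpression, and in c94422_g2_i1 alone the groups overlap.

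The DELLA proteins, the repressors that gibberellin removes, had 1 called member of 7 tested and 14 in all. Unigene c67237_g1_i1 (DELLA protein GAI) had 2.48, 1.71 and 1.53 CPM in mock and 6.89, 6.44 and 5.24 CPM in overexpression, each overexpression library lying above each mock library. Its log2 fold change was 1.69 (SE 0.31, edgeR adjusted p = 0.0129). The adjusted p was 0.0532 without overexpression replicate 1 and 0.0514 without replicate 2, and the log2 fold change stayed between 1.55 and 1.91 when any single library was left out.

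The more abundant DELLA unigenes did not pass the test. Unigene c95247_g2_i2 (DELLA protein GAI1, 13.8 FPKM), the highest of the family per length, had 28.1, 39.6 and 35.6 CPM in mock and 30.2, 28.3 and 28.6 CPM in overexpression (log2 fold change -0.25, SE 0.18, edgeR adjusted p = 0.54). Unigene c99052_g3_i2 (DELLA protein GAI) had 6.72, 26.5 and 8.80 CPM against 21.1, 17.3 and 19.1 CPM. It was not called (0.45, adjusted p = 0.65), but without mock replicate 2, the highest of all 6 libraries, it passed (1.30, adjusted p = 0.0067). Another GAI unigene, c31738_g2_i1, was lower, with 17.2, 9.23 and 24.7 CPM against 6.73, 7.18 and 14.5 CPM (-0.84, SE 0.39, adjusted p = 0.28). Summed over the 14 DELLA members, the level was 73.7 ± 12.5 CPM in mock and 74.1 CPM in overexpression, where the libraries gave 76.6, 71.8 and 73.9.

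Of the low DELLA unigenes, c125082_g1_i1 (DELLA protein RGL1) was counted 2, 1 and 1 times in mock and 9, 19 and 11 times in overexpression, a ratio of 9.36 (exact 95% binomial interval 3.38 to 36.1). Its NR match was a scarecrow-like protein 18, another protein of the GRAS family, and it was below the read filter with all libraries. Without mock replicate 2 it was tested and passed the threshold (log2 fold change 2.91, edgeR adjusted p = 0.0477). With a smaller mock group the filter asked for fewer libraries, and the unigene passed it through overexpression libraries alone. This call therefore does not stand as support for a difference. Unigene c7137_g1_i1 (DELLA protein GAI1) was higher in overexpression replicates 1 and 2 (2.85 and 3.37 CPM) than in mock (0.365, 0.745 and 1.53 CPM), while replicate 3 had 0.664 CPM (log2 fold change 1.41, SE 0.65, edgeR adjusted p = 0.28). The 2 chitin-inducible gibberellin-responsive unigenes, GRAS proteins whose NR match was a scarecrow-like protein 21, were abundant (29.0 and 19.5 FPKM). The higher one, c98884_g3_i1, had 60.9, 79.5 and 70.0 CPM against 42.2, 40.1 and 71.8 CPM (-0.45, SE 0.24, adjusted p = 0.36), replicate 3 again lying with mock.

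The cytokinin genes called by edgeR were both breakdown enzymes. Cytokinin dehydrogenases cleave the side chain of the hormone, and both unigenes named Cytokinin dehydrogenase 7 rose. Unigene c96746_g2_i1 had 7.96, 9.01 and 8.89 CPM in mock and 20.7, 30.5 and 12.2 CPM in overexpression (log2 fold change 1.29, SE 0.30, edgeR adjusted p = 0.0386). Unigene c96746_g1_i2 had 2.92, 1.71 and 1.89 CPM against 7.13, 7.76 and 4.20 CPM (1.54, SE 0.35, adjusted p = 0.0318). The groups did not overlap in either, and overexpression replicate 3 was the lowest of its group in both. The first took 79.9% ± 5.89 of the pair's counts in mock and 76.1% ± 3.11 in overexpression (SD, n = 3), so the pair moved together. Both unigenes lay in the same assembly component and had the same KEGG match, and whether they are separate genes was not tested.

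These calls depended on single libraries. Both unigenes passed without mock replicate 2 (adjusted p = 0.0417 and 0.0477) and without overexpression replicate 3 (0.0046 and 0.0114), and both missed the threshold when any one of the other 4 libraries was left out (adjusted p up to 0.15 and 0.13). The direction held throughout, with log2 fold changes of 0.94 to 1.58 for c96746_g2_i1 and of 1.38 to 1.81 for c96746_g1_i2. With limma-voom, c96746_g1_i2 alone was called (adjusted p = 0.0451).

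The most abundant dehydrogenase per length, c98278_g10_i2 (Cytokinin dehydrogenase 5, 22.6 FPKM), did not pass the test. It had 63.6, 44.5 and 56.5 CPM in mock and 55.4, 56.8 and 45.2 CPM in overexpression (log2 fold change -0.06, SE 0.19, edgeR adjusted p = 0.91; 0.06 when scaled by library size alone). Of the 5 dehydrogenases tested, 3 were higher and 2 lower. The 7 untested ones were short fragments, 1 without a read in any library. Summed over all 12 members the level was 101, 74.3 and 90.7 CPM in mock and 107, 114 and 80.8 CPM in overexpression, and the groups overlapped.

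The synthesis side gave no call. LOG enzymes release the free cytokinin base from its riboside monophosphate, and 6 of the 10 members were tested with 0 calls by edgeR and by DESeq2 and 2 at an unadjusted p under 0.05. The most abundant member of all 119 per length was c90577_g1_i2 (LOG3, 48.8 FPKM), with 20.4, 64.5 and 27.6 CPM in mock and 86.1, 48.5 and 34.1 CPM in overexpression. Its libraries varied within both groups and overlapped (log2 fold change 0.58, SE 0.43, edgeR adjusted p = 0.54). The LOG8 unigene c92965_g2_i2 had 48.8, 34.0 and 47.3 CPM against 67.03, 61.95 and 59.1 CPM, without overlap (0.53, SE 0.19, adjusted p = 0.15). In the other direction, c94181_g1_i2, also named LOG3, had 5.99, 6.78 and 3.14 CPM against 2.38, 1.17 and 3.76 CPM (-1.12, SE 0.44, adjusted p = 0.19).

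Cytokinin hydroxylase, the cytochrome P450 that makes trans-zeatin type cytokinins, was nearly absent from the mock libraries. None of its 3 unigenes reached the read filter. Unigene c80665_g1_i1 was counted 0, 1 and 0 times in mock and 15, 8 and 5 times in overexpression, a ratio of 26.9 (exact 95% binomial interval 4.45 to 1099.7). Unigenes c32715_g2_i1 and c32715_g1_i1 had 0 counts in each mock library. In overexpression they had 5, 1 and 1 counts and 2, 2 and 0 counts. With the mock group given a total of 3 counts this was 2.24-fold and 1.28-fold higher, values that are not confidence limits. When no filter on low counts was used, c80665_g1_i1 passed the edgeR threshold (adjusted p = 0.0040). All 3 unigenes leaned the same way, overexpression replicate 1 having the most reads or sharing the most.

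Phosphotransfer proteins, which relay phosphate from receptors to response regulators, included the member with the largest fitted decrease. Unigene c86485_g1_i1 (Histidine-containing phosphotransfer protein 1) had 12.5, 4.62 and 11.8 CPM in mock and 0.713, 1.10 and 4.79 CPM in overexpression. Overexpression replicate 3 just exceeded mock replicate 2, which made the groups overlap. The log2 fold change was -2.11 (SE 0.62, edgeR adjusted p = 0.086). DESeq2 called it (adjusted p = 0.0038), and edgeR did so without overexpression replicate 3 (-3.38, adjusted p = 0.0043) or without mock replicate 2 (-2.45, adjusted p = 0.0260).

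The phosphotransfer proteins as a family were mixed, with 2 higher and 4 lower of 6 tested. Unigene c91772_g9_i2 (Histidine-containing phosphotransfer protein 1) was higher, at 9.20, 9.53 and 12.0 CPM against 20.6, 24.3 and 12.6 CPM (log2 fold change 0.90, SE 0.26, edgeR adjusted p = 0.080), and passed the threshold with library size alone (1.02, adjusted p = 0.0456) and without overexpression replicate 3 (1.14, adjusted p = 0.0174). The most abundant, c87885_g1_i1 (Histidine-containing phosphotransfer protein 1, 44.4 FPKM), had 63.5, 57.2 and 60.9 CPM against 49.8, 35.0 and 60.5 CPM (-0.32, SE 0.21, adjusted p = 0.47). In c88018_g1_i2 (Histidine-containing phosphotransfer protein 4) the overexpression libraries disagreed among themselves, with 2.06, 2.197 and 14.1 CPM against 7.23, 6.70 and 9.25 CPM in mock. Its log2 fold change was -0.33 with all libraries (adjusted p = 0.84) and -1.85 without overexpression replicate 3 (adjusted p = 0.0086).

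The type A response regulators, fast targets of cytokinin that in turn dampen its signal, gave no call. Of 16 members 10 were tested, 5 were higher and 5 lower, and neither edgeR, DESeq2 nor limma-voom called any, with 0 at an unadjusted p under 0.05 in edgeR. Their log2 fold changes ran from -1.08 to 0.46. The highest per length, c93205_g1_i1 (ARR4, 15.01 FPKM), had 13.9, 26.1 and 13.8 CPM in mock and 27.7, 26.7 and 18.8 CPM in overexpression (0.44, SE 0.28, edgeR adjusted p = 0.45). The lowest value was that of c83845_g3_i1 (ARR6), with 1.39, 0.819 and 1.53 CPM against 0.792, 0.293 and 0.664 CPM (-1.08, SE 0.49, adjusted p = 0.27). In the same component the untested c83845_g2_i2 (ARR17) had 16, 10 and 11 counts in mock and 4, 0 and 4 in overexpression, a ratio of 0.208 (exact 95% binomial interval 0.0835 to 0.453). The remaining unigene of that component, c83845_g1_i1 (ARR17), had 0.949, 1.71 and 0.269 CPM against 1.58, 0.806 and 1.48 CPM, with overlap (0.37, SE 0.57, edgeR adjusted p = 0.80). Summed over the family the level was 57.6, 68.3 and 53.0 CPM against 63.9, 67.4 and 63.2 CPM, with overlap.

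The type B regulators, the DNA-binding factors of the pathway, gave 0 calls by edgeR, DESeq2 and limma-voom among 8 tested of 9, with 2 at an unadjusted p under 0.05. These 2 differed in sign. Unigene c63033_g1_i1 (ARR11) had 8.69, 9.68 and 10.6 CPM against 6.73, 5.35 and 6.64 CPM (log2 fold change -0.63, SE 0.23, edgeR adjusted p = 0.16), and c91456_g2_i1 (ARR1) had 3.29, 5.14 and 3.14 CPM against 6.97, 3.95 and 10.03 CPM (0.85, SE 0.37, adjusted p = 0.24). The highest per length, c97632_g4_i3 (ORR23, 14.8 FPKM), varied little, with 36.7, 35.8 and 36.4 CPM against 42.3, 42.6 and 40.3 CPM (0.20, SE 0.16, adjusted p = 0.56). ARR22, c81228_g1_i1, belongs in *Arabidopsis* to a further class of regulators without a DNA-binding domain. It had 3.80, 4.91 and 3.50 CPM in mock and 9.59, 6.52 and 7.30 CPM in overexpression, without overlap (0.93, SE 0.27, adjusted p = 0.080), and passed without mock replicate 2 (1.09, adjusted p = 0.0471).

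The brassinosteroid members were few. Unigene c100651_g2_i1, named Protein BRASSINOSTEROID INSENSITIVE 1, had 7.45, 6.93 and 4.13 CPM in mock and 17.7, 15.01 and 15.8 CPM in overexpression, every overexpression library being above every mock library. The log2 fold change was 1.38 (SE 0.25, edgeR adjusted p = 0.0135), and it missed the threshold when overexpression replicate 1 was left out (1.31, adjusted p = 0.0576) and passed with each of the other libraries left out. Its NR and KEGG matches were to a receptor-like protein kinase that was not named for brassinosteroid and its Pfam domain was a protein kinase domain, so the value is that of a receptor-like kinase whose role in brassinosteroid perception is not given by the annotation. The other unigene of this name class, c114478_g1_i1, had 5 reads in all.

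BZR1, the transcription factor that carries the brassinosteroid signal to its target genes, was lower in both its unigenes without passing the threshold. Unigene c96022_g1_i1 had 29.5, 44.5 and 34.4 CPM in mock and 18.1, 18.1 and 25.6 CPM in overexpression (log2 fold change -0.81, SE 0.22, edgeR adjusted p = 0.067). In DESeq2 this unigene had an adjusted p of 0.0399 but a difference of less than 2-fold (-0.82). Its partner c96022_g2_i1 had 16.9, 19.4 and 20.7 CPM against 15.6, 16.3 and 16.5 CPM (-0.23, SE 0.18, adjusted p = 0.56). Neither overlapped between the groups. The 2 unigenes of BPG2, a chloroplast GTPase named after a mutant insensitive to a brassinosteroid inhibitor, had log2 fold changes of -0.16 and -0.14 (adjusted p = 0.73 and 0.83), and at 23.1 FPKM c7125_g1_i1 was the highest brassinosteroid member per length.

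**Figure D5:**
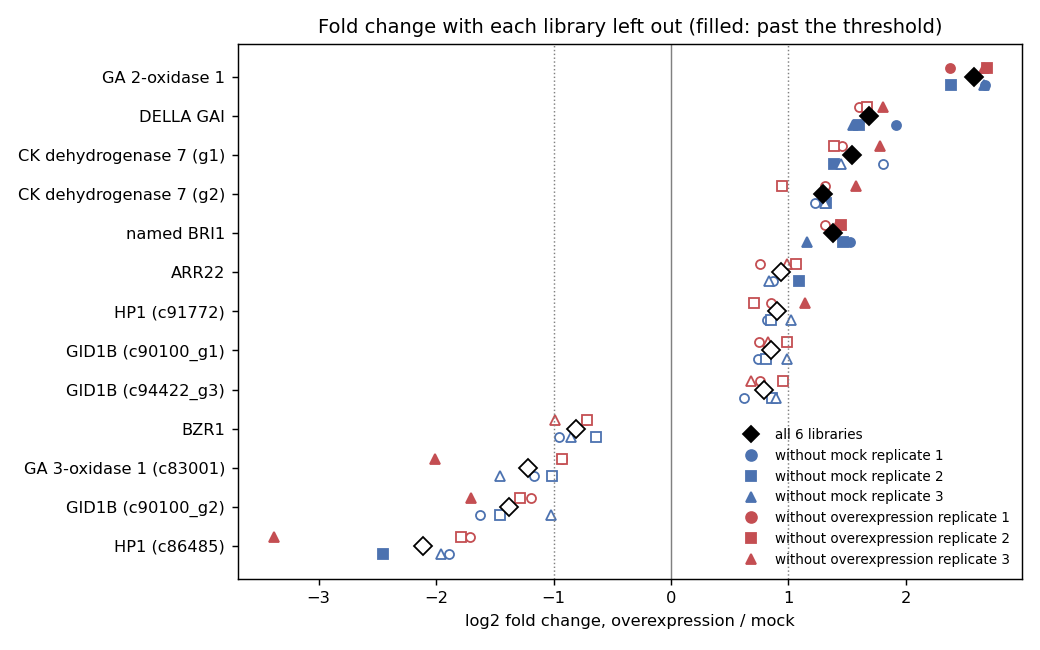
Log2 fold change (horizontal axis, overexpression over mock) of 13 named members with all 6 libraries (diamonds) and with each library left out (blue, mock; red, overexpression; symbols mark the replicate), filled where the value passed the threshold of adjusted p and fold change. Each member stays on its side of 0, the 2-oxidase is filled throughout, and leaving out overexpression replicate 3 moves c86485 from -2.11 to -3.38 and c83001 from -1.22 to -2.00.

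Other genes of the 3 pathways, whose protein names do not carry the hormone's name, were taken from a list of 135 unigenes, of which 71 were tested and 4 were called, 1 higher and 3 lower (5.63%, against the same 4.59% of all tested unigenes). The median log2 fold change of the tested unigenes of the list was -0.06. Of the 4 calls, 3 belonged to brassinosteroid turnover, but brassinosteroid unigenes made up 45 of the 71 tested, and 6.67% of these 45 were called. The cytochrome P450 CYP85A1 (c94444_g3_i2), which makes castasterone at the end of the synthesis, had 4.16, 6.03 and 4.85 CPM in mock and 14.6, 12.6 and 8.78 CPM in overexpression (log2 fold change 1.25, SE 0.27, edgeR adjusted p = 0.0258). The cytochrome P450 CYP734A1 (c96554_g1_i3), which inactivates brassinosteroids by hydroxylation, had 18.98, 8.34 and 19.8 CPM against 5.47, 6.15 and 7.15 CPM (-1.32, SE 0.32, adjusted p = 0.0434). Thus a synthesis enzyme rose and an inactivating one fell, but the second unigene of that inactivating name, c120878_g1_i1, was more abundant per length and had a log2 fold change of 0.22 (adjusted p = 0.53).

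The steroid reductase DET2, an earlier enzyme of the same synthesis, fell in the unigene c6522_g1_i1, with 43, 15 and 11 counts in mock and 2, 6 and 1 in overexpression (log2 fold change -2.92, SE 0.70, edgeR adjusted p = 0.0418). Every overexpression library lay under the read filter, which this unigene passed through the mock libraries alone. The call therefore does not stand as support for a difference. The other 2 tested DET2 unigenes, c90417_g1_i1 and c77964_g1_i2, had log2 fold changes of -0.17 and 0.69, and the NR match of the second was a very-long-chain enoyl-CoA reductase. A 23-monooxygenase of the synthesis, c95922_g1_i5, was higher without passing, with 2.56, 2.46 and 2.78 CPM against 4.83, 7.03 and 4.87 CPM (1.10, SE 0.29, adjusted p = 0.057). Of the 28 tested brassinosteroid signalling unigenes, 8 were higher and 20 lower (median log2 fold change -0.16), against 19014 lower of all 37201 tested unigenes. There were 0 calls by edgeR and DESeq2 and 2 at an unadjusted p under 0.05. One of these 2 was BRI1 kinase inhibitor 1 (c18970_g1_i1), a negative regulator of the receptor, at 1.02, 0.968 and 1.44 CPM against 0.396, 0.366 and 0.221 CPM (-1.77, SE 0.48, adjusted p = 0.063). This unigene, too, passed the read filter through the mock libraries alone.

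In the cytokinin list the transcription factor CRF4 (c95554_g1_i2), of a family of cytokinin response factors, fell from 1.24, 2.53 and 2.69 CPM to 0.634, 0.659 and 0.221 CPM (log2 fold change -2.07, SE 0.51, edgeR adjusted p = 0.0463). Every overexpression library lay under the read filter of 0.763 CPM. CRF4 was tested through the mock libraries alone, so this call does not stand as support for a difference. The 6 tested histidine kinases, the class that holds the cytokinin receptors, gave 0 calls by edgeR and DESeq2 and 2 at an unadjusted p under 0.05. The receptor Histidine kinase 3 (c100548_g1_i2) had 73.7, 98.0 and 67.9 CPM against 114, 97.8 and 151 CPM (0.60, SE 0.22, adjusted p = 0.16). Purine permeases, which in *Arabidopsis* can carry cytokinin bases, had log2 fold changes from -1.51 for c112648_g1_i1 to 1.56 for c10482_g1_i1, with no edgeR call among 8 tested, 1 called lower by DESeq2 and 3 at an unadjusted p under 0.05.

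In the gibberellin list none of 7 tested unigenes was called by edgeR, while DESeq2 and limma-voom each called 1 lower. In edgeR 5 had an unadjusted p under 0.05, a level that 18.9% of all tested unigenes reached. Ent-kaurene synthase (c90246_g1_i6), an early enzyme of the pathway in the chloroplast, had 21.9, 15.1 and 15.5 CPM in mock and 2.69, 2.86 and 11.7 CPM in overexpression, replicate 3 again being nearest to mock (log2 fold change -1.60, SE 0.49, edgeR adjusted p = 0.099). The later enzymes ent-kaurene oxidase (c94945_g1_i3) and ent-kaurenoic acid oxidase 1 (c93702_g1_i1) were higher, at 0.59 (adjusted p = 0.24) and 1.34 (adjusted p = 0.19). The F-box protein GID2 (c89549_g3_i1), which marks DELLA proteins for degradation, had 18.3, 31.8 and 15.5 CPM against 42.2, 30.2 and 29.4 CPM (0.63, SE 0.28, adjusted p = 0.25).

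When any of the libraries mock replicate 1, mock replicate 3, overexpression replicate 1 or overexpression replicate 2 was left out, none of the list's 4 calls remained, and CRF4 was lost with each of the 6 left out (adjusted p from 0.066 to 0.13). DET2 c6522_g1_i1 passed without mock replicate 2 (adjusted p = 0.0255) and with no other library left out (0.0745 without overexpression replicate 3). Without mock replicate 2 or without overexpression replicate 3 the list had 8 calls. The share called of all tested unigenes also rose, from 4.59% to 6.62% and 6.86%. CYP85A1 and CYP734A1 passed in both (adjusted p = 0.0146 and 0.0017 without mock replicate 2, and 0.0105 and 0.0461 without overexpression replicate 3). The directions of the 4 called unigenes held with every library left out. With limma-voom and with edgeR scaled by library size alone, CYP85A1 was the one of the 4 that passed (adjusted p = 0.0375 and 0.0158). CYP734A1, DET2 c6522_g1_i1 and CRF4 missed the threshold in both (adjusted p from 0.0505 to 0.0885).

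The 52 untested members held 0.760% of all member counts. Their median length was 352 bases, against 1494 bases for the tested members, 46 of them were shorter than 900 bases, and 2 had no read in any library. None had more than 51 counts over the 6 libraries, so that a change in them was not tested at this depth. All members together took between 0.0981% and 0.122% of the counts of a library.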

How the data were processed

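Strand-marking mRNA libraries were trimmed by the authors (Trimmomatic) and assembled without a genome (Trinity), near-identical contigs were merged (CD-HIT-EST), reads were aligned to the contigs (Bowtie2), abundance was estimated (RSEM) and protein matches were found (DIAMOND). The deposited table of the whole series gives counts per unigene and FPKM, the authors' level per length. Expected counts deposited for each library were rounded and equalled that table in all 6 libraries. Whether counting used strand is not given in the sources used here.

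Here unigenes were kept by filterByExpr (10 reads at the median depth, 0.763 CPM, in 3 libraries), TMM-scaled and tested with edgeR 4.0.16 (quasi-likelihood F test, no covariate) in R 4.3.3, overexpression against mock. A call needed a difference of 2-fold or more and a Benjamini-Hochberg adjusted p below 0.05. DESeq2 1.42.0, limma-voom (limma 3.58.1), other scalings, filters, a replicate block, summing by protein name and leaving out each library were alternatives, and the fit was tested on simulated data. Depth was 12031310 to 14285138 counts per library, and intervals for low counts are exact binomial at 95%. Members without the *Nicotiana* or *Solanum* requirement numbered 124. Named genes were each member called, the highest member per length of each role, the 5 lowest p-values of each hormone and each pathway unigene called. Others were named after their values were seen. Members, lists and tests were chosen with earlier results of these data known.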

Additional observations from a re-analysis of the deposited data

How the results depend on the processing

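Of the 5 members called (2 gibberellin, 2 cytokinin, 1 brassinosteroid), edgeR glmTreat against a fold change of 2 left 1 (1, 0 and 0 by hormone), and summing counts by protein name left 2 names (0, 1 and 1). Without a filter on low counts there were 12 (7, 4 and 1). Limma-voom called 4 members, with 1 for cytokinin. Leaving out one library gave 1 to 11 members in all, 1 to 6 for gibberellin, 0 to 5 for cytokinin and 0 to 1 for brassinosteroid, with 11 without mock replicate 2 and 11 without overexpression replicate 3. DESeq2 size factors, a filter of at least 1 CPM in 3 libraries and membership from any NR species each gave 5. The pathway list, with 4 calls, had 0 with glmTreat, 2 with limma-voom, 2 with library size alone, 8 without a filter, 2 with summed counts and 0 to 8 with one library left out. With limma-voom and with library size alone, CYP85A1 was the only one of the 4 calls that remained, the other call being of another unigene. With one library left out, the share called of all tested unigenes ran from 1.72% to 6.86%. The median log2 fold change of the members, -0.07, became 0.093 with DESeq2 and 0.10 without a filter, both of which add low unigenes, 0.052 with library size alone, and -0.088 to -0.0031 with one library left out.

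Among single genes, the direction turned for c84423_g1_i2 with limma-voom (0.26), the replicate block (0.27) and without mock replicate 2 (1.27, against a lowest value of -0.73 with one library left out), for c98278_g10_i2 with library size alone (0.056), without mock replicate 1 (0.045) and without overexpression replicate 3 (range -0.20 to 0.045 over the left-out libraries), for c95982_g2_i2 without mock replicate 3 (range -0.34 to 0.086), and with summed counts for the names of c90100_g2_i1 (0.40), c91772_g9_i2 (-0.12) and c6522_g1_i1 (0.22). Over the 434 values of named genes under the alternatives, 358 kept direction and side of the threshold, 53 no longer passed, 13 newly passed and 10 turned. Only the 5 members and 4 list unigenes called with all libraries could lose a call, so all 53 losses were theirs. The 358 include the values of the named genes not called, which had no call to lose.

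The groups share replicate numbers, but libraries of the same number did not deviate together (correlations of -0.11, -0.13 and -0.09), and no library correlated best with its own number. With the replicate block 5 members were called (3.84% of all tested unigenes), c86485_g1_i1 entering (lower) and c96746_g2_i1 dropping out, and 0 of the pathway list. Low counts limit 52 of the 119 members, and pooled plants in 3 libraries a group limit the rest. The causes of these differences were not tested, apart from the unigenes that a filter adds.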
